A study of Mus musculus with 5 samples.

Results

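The genes described here are 39 components of BMP and TGF-beta signalling, a fixed list of gene symbols, all of which were present among the 23234 rows of the expression table. They comprise 15 ligand genes, the protease gene Bmp1, 10 receptor genes, 5 genes for secreted antagonists, 6 Smad genes and 2 Smurf genes. BMPs, growth differentiation factors, activins and TGF-betas are secreted dimers that bring type II and type I receptor kinases together on the cell surface. The type I receptor then phosphorylates receptor Smads, which join Smad4 and enter the nucleus to change transcription. BMPs act mainly through Smad1, Smad5 and Smad9, and activins and TGF-betas through Smad2 and Smad3. In the embryonic forebrain BMPs are best known from the dorsal midline, where they pattern the hem and choroid plexus, and antagonists such as Noggin and Chordin keep ligands from their receptors.

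RNA was sequenced from cells of the cerebral cortex of CD1 mouse embryos that had been electroporated at E12.5 and harvested at E15.5. The 3 samples of the Ptf1a group received a construct that misexpressed Ptf1a, a bHLH transcription factor of inhibitory neuron and pancreatic lineages, together with GFP, and the 2 control samples received a GFP-only construct. GFP-expressing cells, labelled by the submitters as cortical pyramidal cells, were sorted from 3 to 6 pooled brains per sample, with about 58000 to 106000 cells and 2.1 to 7.8 ng of RNA. The promoter of the constructs is not given in the sources used here, both groups carried electroporated DNA and GFP, and nothing states which samples shared a litter.

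The table gives 1 FPKM value per group (fragments mapped to a transcript, scaled by its length and by the mapped fragments of the library), so the spread between samples, the depth and any overlap of the groups cannot be seen. The words risen and fallen are kept for genes whose q-value in the authors' deposited table was under 0.05 and give the direction with Ptf1a. The authors made this test for 11876 genes. Errors given as SE are the deposited log2 fold divided by the deposited test statistic. Differences given as log2(FPKM + 0.1) were computed from the group values, and the added 0.1 understates the change of weak genes. Ptf1a itself was at 0.210 FPKM in the control and 38.9 FPKM in the Ptf1a group.

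Of the 39 genes, 24 were tested, and with Ptf1a 10 of these rose, 1 fell and 13 did not pass the test. The risen genes were the ligand genes Tgfb2, Tgfb3, Bmp7 and Inhbb, the receptor genes Bmpr1a, Bmpr2 and Acvr2b, the antagonist gene Fst, and Smad3 and Smad5. Bmp1 fell. The risen share was 41.7% of the tested components, beside 18.7% of all tested genes, and the fallen share was 4.17%, beside 19.1% of all tested genes. Weakly expressed genes rose more often in the whole table: among the 7366 tested genes with a mean FPKM between those of the weakest and the most abundant tested component (Bmp7 and Smad4, the latter at 9.84), 23.5% rose and 9.95% fell. The median log2(FPKM + 0.1) difference was 0.23 over the 24 components, -0.01 over all tested genes and 0.13 over the tested genes within that range.

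These calls rested on the authors' own p-values. When the deposited test statistic was instead read against a normal distribution and adjusted by Benjamini-Hochberg over the 11831 genes that had one, 3.31% of genes were called as higher and 2.81% as lower. Of the components, Tgfb2 alone passed, with an adjusted p of 0.00923 by that normal reading of the Cuffdiff statistic. The other called genes did not pass, at adjusted p-values from 0.0998 for Bmpr1a to 0.684 for Bmp1. At a deposited q under 0.01, where 12.9% of all tested genes rose and 12.9% fell, 7 components rose and 0 fell. Requiring at least a 1.5-fold change as well as a q under 0.05 left 8 risen and 0 fallen components, beside 13% and 7.7% of all tested genes. Of the 16 tested components with a mean of at least 1 FPKM over both groups, 5 rose (Tgfb2, Bmpr1a, Acvr2b, Fst and Smad5) and Bmp1 fell, beside 16.7% and 21.6% of all tested genes with such a mean.

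**Figure D1:**
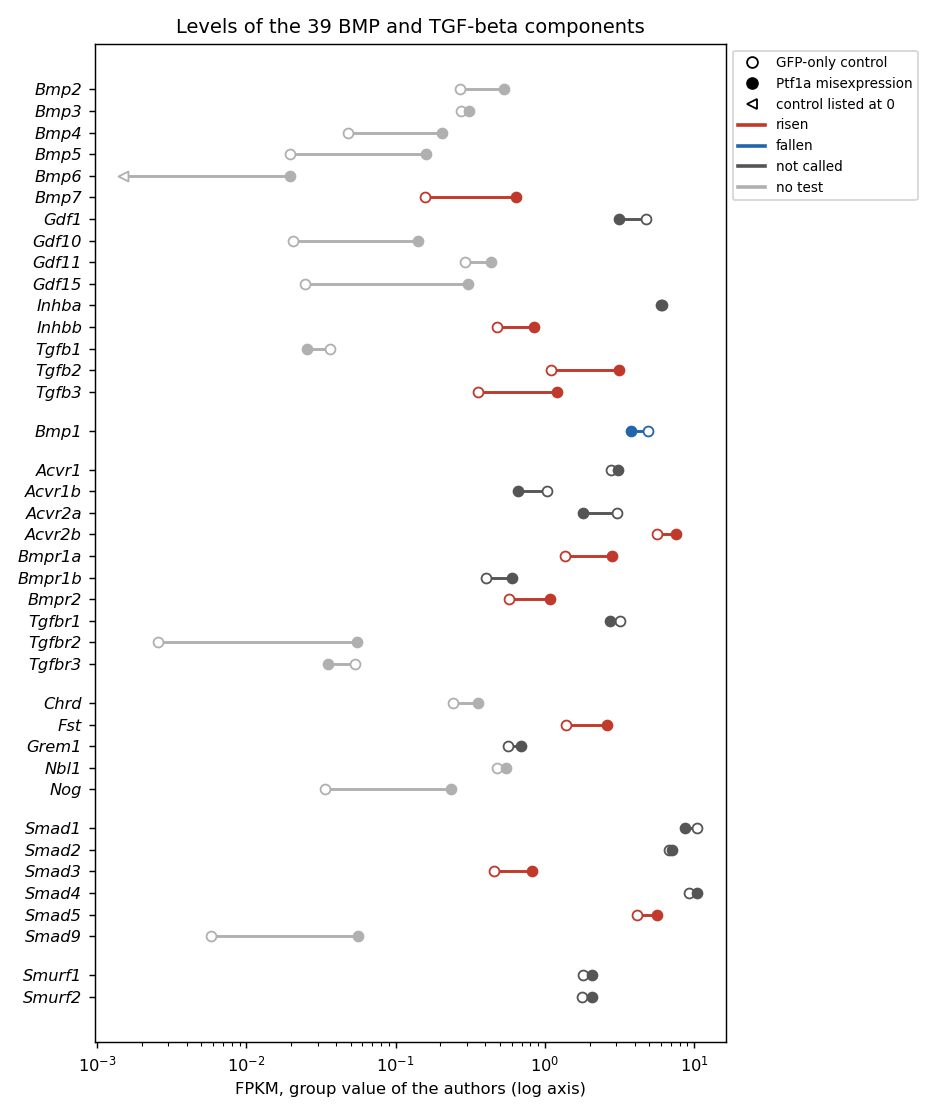
Levels of the 39 components by role (rows) as FPKM on a log axis, with the control value as an open symbol, the Ptf1a value as a filled one and colour for the call. The 10 risen genes lay between 0.157 FPKM (Bmp7) and 5.66 FPKM (Acvr2b) in the control, the most abundant components, Smad1 and Smad4, were not called, and Bmp6, listed at 0 in the control, is drawn as a triangle at the left edge.

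To show the DNA just upstream of genes that moved, the 250 bases before the annotated start are given for the 4 risen components with the largest log2(FPKM + 0.1) difference among those matched to the RefSeq promoter table, and for Smad1, the most abundant matched component that was tested and not called. The sequences are from RefSeq on the build GRCm38.p6, written 5′ to 3′ on the gene's strand and ending at the base before the start. The windows are chr1:186705990-186706239 (minus strand) for Tgfb2, chr14:34502547-34502796 (minus strand) for Bmpr1a, chr1:59764029-59764278 (plus strand) for Bmpr2, chr9:63757995-63758244 (minus strand) for Smad3 and chr8:79399429-79399678 (minus strand) for Smad1. Capitals mark the letters of 3 motifs. The first is the general E-box CANNTG of bHLH factors, which does not single out sites of Ptf1a. The second is the core TGGGAA of sites for Rbpj, the Notch pathway factor that Ptf1a partners. It was read on either strand and so also as its reverse complement TTCCCA. The third is the palindrome GGCGCC known from BMP Smad sites.
Tgfb2: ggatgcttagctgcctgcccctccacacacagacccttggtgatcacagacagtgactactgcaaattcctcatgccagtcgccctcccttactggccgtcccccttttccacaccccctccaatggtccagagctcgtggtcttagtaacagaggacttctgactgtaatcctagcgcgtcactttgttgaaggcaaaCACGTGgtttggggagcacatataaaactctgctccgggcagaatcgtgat
Bmpr1a: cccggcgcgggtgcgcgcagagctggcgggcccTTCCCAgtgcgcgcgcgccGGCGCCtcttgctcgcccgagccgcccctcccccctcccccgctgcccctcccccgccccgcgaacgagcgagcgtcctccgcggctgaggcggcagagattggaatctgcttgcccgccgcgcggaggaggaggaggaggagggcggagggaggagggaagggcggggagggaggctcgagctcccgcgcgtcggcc
Bmpr2: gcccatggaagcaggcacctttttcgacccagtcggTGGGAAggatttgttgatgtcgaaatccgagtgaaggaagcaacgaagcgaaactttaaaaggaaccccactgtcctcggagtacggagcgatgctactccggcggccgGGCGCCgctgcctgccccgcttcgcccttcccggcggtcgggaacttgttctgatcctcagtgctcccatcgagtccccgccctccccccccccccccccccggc
Smad3: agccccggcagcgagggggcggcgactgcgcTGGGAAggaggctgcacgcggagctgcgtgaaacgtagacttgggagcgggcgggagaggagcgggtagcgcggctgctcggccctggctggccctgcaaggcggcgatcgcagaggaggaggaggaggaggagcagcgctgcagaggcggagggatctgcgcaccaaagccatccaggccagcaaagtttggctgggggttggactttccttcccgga
Smad1: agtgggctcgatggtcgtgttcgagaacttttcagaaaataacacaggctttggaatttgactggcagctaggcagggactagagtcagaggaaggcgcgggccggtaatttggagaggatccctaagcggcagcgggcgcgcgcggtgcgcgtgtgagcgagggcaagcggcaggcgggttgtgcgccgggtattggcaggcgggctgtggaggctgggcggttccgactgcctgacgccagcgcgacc

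Tgfb2 had 1 E-box in this window, with the letters CACGTG, and neither of the other motifs. Bmpr1a and Bmpr2 each held 1 Rbpj core and 1 BMP Smad palindrome, Smad3 held 1 Rbpj core, and Smad1 held none of the 3. Across the list, 29 of 39 symbols were matched, and the first listed window of each was searched on both strands. E-boxes were found in 2 of 7 risen components (Tgfb2 and Smad5), 3 of 11 tested and not called (Bmpr1b, Gdf1 and Acvr1b) and 4 of 11 without a test (Smad9, Gdf11, Bmp6 and Bmp4), beside 66.2% of all 32851 windows of this length. The E-box form CAGCTG was found in 0 of 7 risen, 0 of 11 not called and 1 of 11 without a test, beside 13.0% of all windows. The form CAGGTG or its reverse complement CACCTG was found in 0, 1 and 3 of these, beside 17.2%. Rbpj cores were found in 3 of 7 risen components, 0 of 11 not called and 2 of 11 without a test (Smad9 and Bmp5), beside 21.6% of all windows. The BMP Smad palindrome was found in 2, 4 and 3 of these, beside 9.59% of all windows. The general Smad box CAGAC or its reverse complement GTCTG, which can share bases with an E-box, was found in 2, 6 and 5, beside 42.2%. The components' windows were richer in G and C than windows in general, with medians of 68% for the risen, 74.8% for the not called and 73.2% for the untested, beside 52.4% over all windows; its part in these shares was not tested. These matches describe the letters and do not show binding.

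Among the ligand genes, 6 of 15 were tested and 4 rose, all from low levels. This share of 66.7%, of few genes, stood beside 18.7% of all tested genes and 23.5% of those in the components' range of mean FPKM. Tgfb2, which encodes the TGF-beta isoform most prominent in the developing nervous system, was at 1.10 FPKM in the control and 3.12 FPKM with Ptf1a, a ratio of 2.84. Its log2 fold in the authors' deposited table was 1.51 with an SE of 0.42 and a q of 0.000329. This was the smallest q in that table, shared with many genes outside the list, among them Id1, Neo1 and Pax6. The gene lies at chr1:188447065-188529871 in mm9, the build of the table. Tgfb3, the gene for another TGF-beta isoform, was at 0.359 FPKM in the control and 1.22 FPKM with Ptf1a. The authors' deposited table gave a log2 fold of 1.76 (SE 0.68) and the same q of 0.000329 for this gene, at chr12:87397693-87419991. Tgfb2 and Tgfb3 thus had nearly equal log2(FPKM + 0.1) differences, 1.43 and 1.52, from control levels of 1.10 and 0.359 FPKM.

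Bmp7, a BMP of the 60A class with broad roles in forebrain and meningeal development, went from 0.157 to 0.643 FPKM, a log2(FPKM + 0.1) difference of 1.53. With a pseudocount of 1 in place of 0.1 this difference was 0.51, below those of Tgfb2 (0.97), Tgfb3 (0.71), Bmpr1a (0.69) and Fst (0.60). The rank of Bmp7 thus depended on the pseudocount. By the deposited log2 fold, which has no pseudocount, Bmp7 was the highest of the tested components. Its log2 fold in the authors' deposited table was 2.03 with a wide SE of 1.19 and a q of 0.0260, at chr2:172695189-172765794. Inhbb, which encodes the beta B chain of activin and inhibin, went from 0.480 to 0.846 FPKM (log2 fold 0.82, SE 0.58, q = 0.0245 in the authors' deposited table, chr1:121312042-121318825). Inhba, the gene for the beta A chain, was far more abundant and had nearly the same value in both groups, 6.10 FPKM in the control and 5.99 FPKM with Ptf1a (q = 0.933 in the authors' deposited table). Gdf1, a Nodal-related ligand gene, was at 4.76 FPKM in the control and 3.16 FPKM with Ptf1a and was not called (q = 0.145 in the authors' deposited table). Its locus in the table, chr8:72839674-72877172, was also the locus given for Lass1 and Upf1, so reads of these genes may not be separable. Bmp1 is not a ligand of the family but an astacin protease that cuts procollagens and Chordin. It fell from 4.94 to 3.78 FPKM, with a log2 fold of -0.39 (SE 0.35) and a q of 0.0440 in the authors' deposited table, at chr14:70874362-70920067.

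The remaining 9 ligand genes had no test. Bmp2 was at 0.272 FPKM in the control and 0.529 FPKM with Ptf1a, and Bmp4, the other ligand of its class, was at 0.0477 and 0.206 FPKM. Bmp2 and Bmp4 are the BMPs most used in dorsal patterning of the neural tube. Bmp5 was at 0.0197 and 0.161 FPKM, and Bmp6 was listed at 0 in the control and at 0.0196 FPKM with Ptf1a. Bmp3, which acts mostly against other BMPs, had 0.273 and 0.313 FPKM. All 5 were thus higher with Ptf1a at levels where the authors made no test. In the whole table, 62.4% of untested rows at the levels of the untested components were also higher with Ptf1a. The locus of Bmp4 was shared with Gm15217, listed at 0 in the control and 0.0201 FPKM with Ptf1a. Gdf10 had 0.0205 and 0.142 FPKM, Gdf11, a ligand that restrains neurogenesis in several neural tissues, 0.292 and 0.433 FPKM, and Gdf15, a stress-responsive distant family member, 0.0248 and 0.308 FPKM. Tgfb1, the isoform of immune and vascular tissue, was the weakest of the TGF-beta genes in both groups, at 0.0366 FPKM in the control and 0.0256 FPKM with Ptf1a.

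Of 10 receptor genes 8 were tested, and 3 rose with 0 fallen at a deposited q under 0.05. The risen share of 37.5% stood beside 18.7% of all tested genes and 23.5% of those in the components' range of mean FPKM. In that range 9.95% fell. Bmpr1a, which encodes the main BMP type I receptor of neural progenitors, was at 1.36 FPKM in the control and 2.81 FPKM with Ptf1a. In the authors' deposited table its log2 fold was 1.05 (SE 0.40) with the smallest q of 0.000329, which many genes outside the list shared, at chr14:35224254-35315732. Bmpr2, the gene for the BMP type II receptor, was at 0.574 and 1.08 FPKM (log2 fold 0.92, SE 0.61, q = 0.00647 in the authors' deposited table, chr1:59821481-59927703). Acvr2b, an activin and BMP type II receptor gene, was the most abundant receptor component in both groups. It rose from 5.66 to 7.61 FPKM, with a log2 fold of 0.43 (SE 0.35) and a q of 0.0474 in the authors' deposited table, at chr9:119311619-119342624. Risen receptor genes therefore included both a type I and 2 type II receptors able to bind BMPs.

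The 5 receptor genes that were tested and not called lay on both sides of equality. Bmpr1b, a BMP type I receptor gene close to Bmpr1a in sequence, was at 0.404 FPKM in the control and 0.599 FPKM with Ptf1a (q = 0.101 in the authors' deposited table). Acvr1, the type I receptor gene for Bmp6 and Bmp7 class ligands, was at 2.76 and 3.11 FPKM (q = 0.509 in the authors' deposited table). The activin type I receptor gene Acvr1b was lower with Ptf1a, 1.04 against 0.658 FPKM, and missed the threshold with q = 0.0611 in the authors' deposited table. Acvr2a, the other activin type II receptor gene, was also lower, 3.05 against 1.81 FPKM, with q = 0.0512 in the authors' deposited table. Acvr2a was the tested component closest to the threshold without a call, and its locus was shared with Orc4, a replication gene that fell from 25.6 to 19.3 FPKM. Tgfbr1, the TGF-beta type I receptor gene, was at 3.21 and 2.74 FPKM (q = 0.245 in the authors' deposited table). Tgfbr2, the type II receptor gene on which TGF-beta binding depends, had no test and was near the bottom of the list at 0.00257 FPKM in the control and 0.0551 FPKM with Ptf1a. Tgfbr3, the gene for the co-receptor betaglycan, had no test either, with 0.0532 and 0.0355 FPKM. The risen TGF-beta ligand genes Tgfb2 and Tgfb3 therefore stood beside a Tgfbr2 transcript under 0.1 FPKM in both groups.

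Among the 5 antagonist genes 2 were tested. Fst encodes Follistatin, which binds activins and, less tightly, several BMPs. It rose from 1.38 to 2.60 FPKM, with a log2 fold of 0.91 (SE 0.50) and a q of 0.00183 in the authors' deposited table, at chr13:115242470-115248938. Grem1, which encodes the BMP antagonist Gremlin, was at 0.565 and 0.692 FPKM and was not called (q = 0.631 in the authors' deposited table). Nog, the gene for Noggin, was at 0.0338 FPKM in the control and 0.236 FPKM with Ptf1a, with no test. Chrd, the gene for the Bmp1 substrate Chordin, was at 0.243 and 0.354 FPKM, and Nbl1, a DAN family antagonist gene, at 0.476 and 0.547 FPKM, also with no test. All 5 antagonist genes had the higher value in the Ptf1a group, and Fst alone passed the test. Of untested rows at the levels of the untested components, 62.4% were likewise higher with Ptf1a. Measured from the median of tested genes of similar mean FPKM, the log2(FPKM + 0.1) differences were 0.73 for Fst and -0.21 for Grem1. The locus of Chrd was shared with Thpo, listed at 0 in the control and 0.167 FPKM with Ptf1a.

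The Smad genes held the highest levels of the list. Smad1 was at 10.5 FPKM in the control and 8.70 FPKM with Ptf1a and was not called (q = 0.113 in the authors' deposited table). Its close relative Smad5 rose from 4.13 to 5.62 FPKM, with a log2 fold of 0.45 (SE 0.31) and a q of 0.00352 in the authors' deposited table, at chr13:56804371-56843739. Smad9, the remaining BMP Smad gene, had no test at 0.00584 and 0.0559 FPKM. The BMP Smad genes thus had values in opposite directions, of which the higher Smad5 passed the test. Smad3, the gene for an activin and TGF-beta Smad that binds DNA directly, rose from 0.457 to 0.827 FPKM (log2 fold 0.86, SE 0.57, q = 0.00853 in the authors' deposited table, chr9:63494574-63605801). Smad2, its more abundant partner gene, was at 6.82 and 7.14 FPKM (q = 0.695 in the authors' deposited table). Smad4, the common partner of all receptor Smads, was at 9.27 and 10.4 FPKM (q = 0.341 in the authors' deposited table). The ubiquitin ligase genes Smurf1 and Smurf2, whose products mark Smads and receptors for degradation, had almost the same levels as each other, 1.81 and 1.78 FPKM in the control and 2.07 FPKM each with Ptf1a. Neither Smurf gene was called (q = 0.428 and 0.356 in the authors' deposited table).

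**Figure D2:**
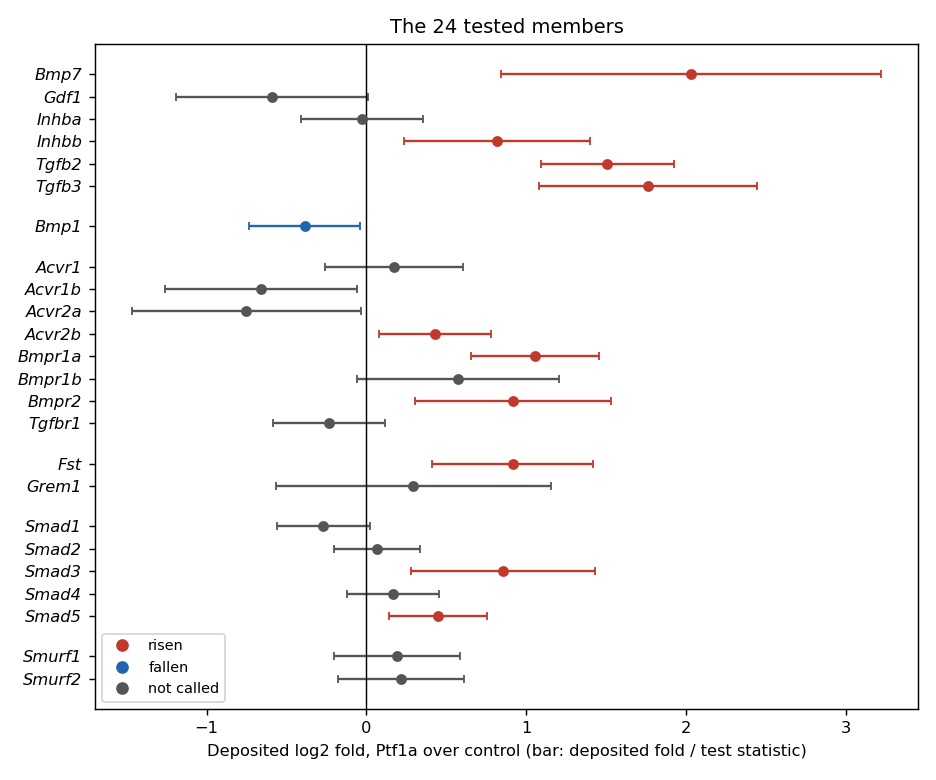
Log2 fold of Ptf1a over control for the 24 tested components by role (horizontal axis), as deposited by the authors, with bars of 1 SE taken as the fold divided by the test statistic. Tgfb2, Tgfb3 and Bmpr1a lie more than 2 SE from 0 and are the components with the smallest q, which many genes outside the list shared. The bars of Bmp1 and Acvr2b, the called components with the highest q, end close to 0.

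The SE of the log2 fold had a median of 0.42 over the 24 tested components and was largest for Bmp7. Of the 10 risen genes 4 had at least a 2-fold ratio of FPKM: Bmp7, Tgfb3, Tgfb2 and Bmpr1a. The smaller rises of Acvr2b and Smad5 had ratios of 1.35 and 1.36.

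The 15 genes without a test had at most 0.547 FPKM in their higher group, while every tested component had at least 0.599 FPKM there. Of these 15 genes 13 were higher with Ptf1a, and Tgfb1 and Tgfbr3 were lower. The share of 86.7% stands beside 62.4% of the 6413 untested rows of the table within the same range of higher-group FPKM. Because no test was made, none of these genes is counted as risen or fallen.

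Summing FPKM within a role shows which transcripts made up most of each sum, whether or not the gene was called. The 6 BMP ligand genes from Bmp2 to Bmp7 summed to 0.770 FPKM in the control and 1.87 FPKM with Ptf1a, and the 3 TGF-beta ligand genes to 1.49 and 4.36 FPKM. Tgfb2 made up 73.5% of the TGF-beta ligand sum in the control and 71.5% with Ptf1a, so Tgfb3 moved beside it. Bmp2 and Bmp3 together led the BMP ligand sum in the control, with 35.3% and 35.5%, and Bmp7 led it with Ptf1a at 34.4%, from 20.4% in the control. The activin beta chain sum, 6.58 against 6.84 FPKM, was mostly Inhba, at 92.7% and 87.6%. In both groups Inhba thus exceeded each BMP and TGF-beta ligand gene of the list in FPKM. The growth differentiation factor sum was 5.09 against 4.04 FPKM, of which Gdf1 made up 93.4% and 78.2%.

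Among receptors, the 3 BMP type I receptor genes summed to 4.52 FPKM in the control and 6.53 FPKM with Ptf1a. Bmpr1a went from 30.0% to 43.1% of that sum, and Acvr1 from 61.1% to 47.7%. The activin and TGF-beta type I receptor genes Acvr1b and Tgfbr1 summed to 4.25 and 3.39 FPKM. The 4 type II receptor genes summed to 9.29 and 10.6 FPKM, with Acvr2b at 60.9% and 72.0% and Acvr2a at 32.9% and 17.2%. The receptor total was thus similar in the groups at type II, while the shares of Acvr2b and Acvr2a within it differed, of which Acvr2a was not called. The BMP Smad sum was almost equal, 14.6 against 14.4 FPKM, with Smad1 at 71.7% and 60.5% and Smad5 at 28.2% and 39.1%. Smad2 and Smad3 summed to 7.28 and 7.97 FPKM, of which Smad2 made up 93.7% and 89.6%. The antagonist sum was 2.70 against 4.43 FPKM, with Fst at 51.2% and 58.7%, and the Smurf sum was 3.60 against 4.14 FPKM. These sums have no error and were not tested.

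**Figure D3:**
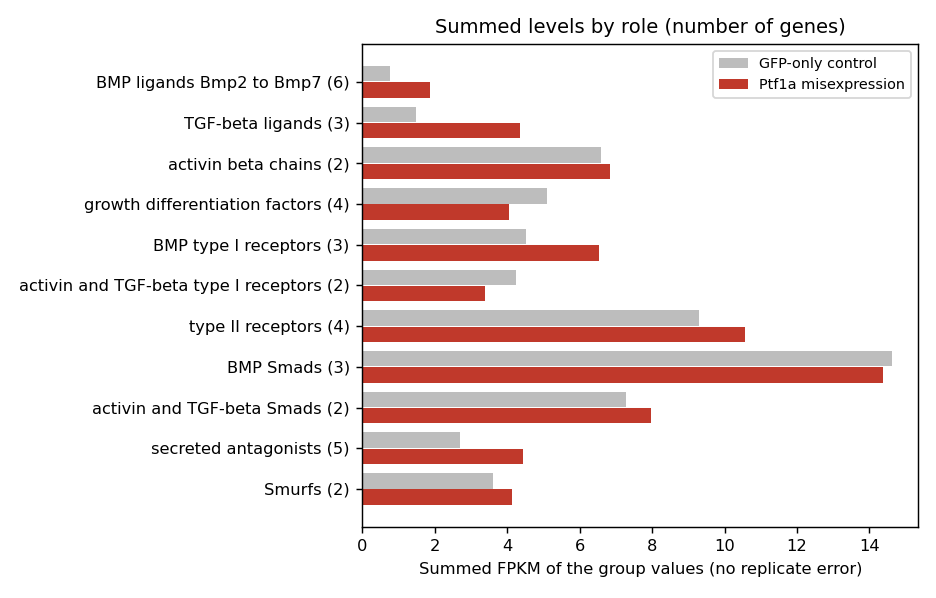
Summed FPKM of the group values by role (bars from 0), with the number of genes in parentheses, grey for the GFP-only control and red for Ptf1a, without error bars because the table gives 1 value per group. The TGF-beta ligand sum was 2.92 times and the BMP ligand sum 2.43 times as high with Ptf1a, while the BMP Smad sum was 0.984 times the control.

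Abundance moved with the direction of change in the whole table. After the tested genes were divided into 10 equal parts by mean FPKM, the median log2(FPKM + 0.1) difference was 0.47 in the lowest part and -0.32 in the highest. The risen components had a median mean level of 1.41 FPKM, the other 14 tested components 2.96 FPKM, and all tested genes 4.87 FPKM. Of the 10 risen components 8 had a mean under 3 FPKM, as did 8 of the other 14. Because risen components were selected as higher with Ptf1a, they were likely in advance to lie above the median of their own part. All 10 did, from 0.24 above it for Inhbb to 1.32 above it for Tgfb3. Measured this way, 16 of 24 tested components were above, and their median was 0.05 in place of 0.23. The largest distances were thus those of Tgfb3 and Tgfb2 (1.29), while the values of Inhbb and Smad3 (0.27) were close to those of other genes as weak as they were.

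**Figure D4:**
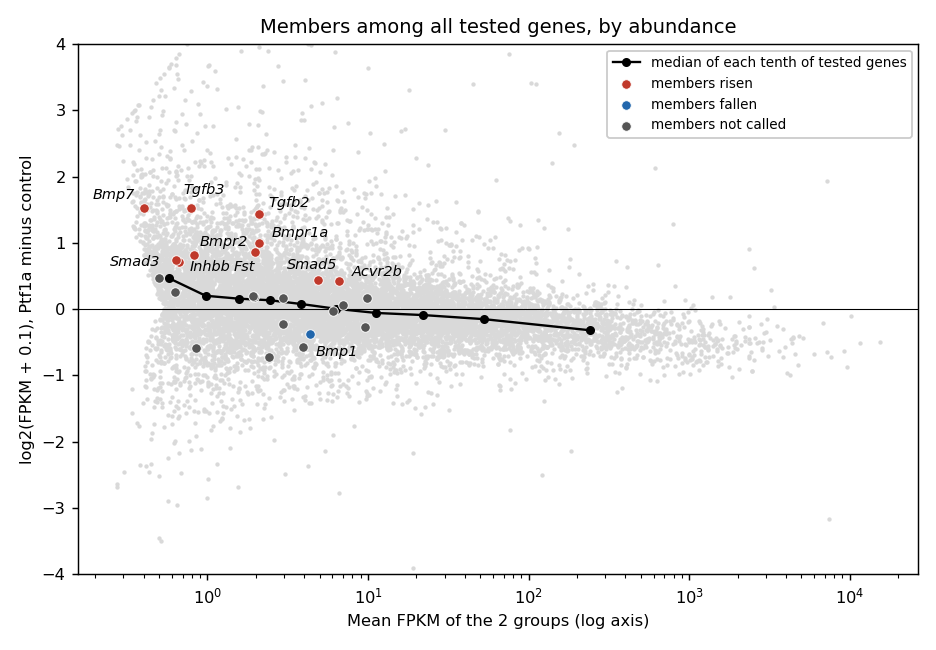
Difference in log2(FPKM + 0.1), Ptf1a minus control, against the mean FPKM of both groups on a log axis, for all tested genes (grey), the median of each of 10 equal parts of them (black line) and the 24 tested components (coloured by call). The black line falls from 0.47 to -0.32, and 66 tested genes beyond the vertical range are not drawn. Every risen component lies above the line, which their selection as higher made likely in advance.

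Another 101 genes of the pathway outside the list were read beside the components. Of these 51 were tested, 18 rose (35.3%) and 4 fell (7.84%), beside 18.7% and 19.1% of all tested genes, and their median log2(FPKM + 0.1) difference was 0.26. With the normal p-values 6 of the 18 passed, 5 of them feedback and target genes. Feedback and target genes had 6 risen and 1 fallen of 9 tested. Id1 and Id3, direct BMP Smad targets that hold bHLH factors in check, went from 19.2 FPKM in the control to 204 FPKM with Ptf1a and from 58.0 to 324 FPKM. Both Id genes rose from levels well above those of any ligand, receptor or Smad gene of the list. Atoh8, a bHLH gene induced by BMPs in other tissues, rose from 0.419 to 3.98 FPKM, and Hey1, a target shared with Notch, from 4.67 to 13.8 FPKM. Id2, named after its value was seen, was the fallen gene of this group, at 1513 FPKM in the control and 1015 FPKM with Ptf1a. The inhibitory Smad genes Smad6 (0.245 and 0.181 FPKM) and Smad7 (0.218 and 0.411 FPKM) and the pseudoreceptor gene Bambi (0.509 and 0.317 FPKM), 3 feedback genes of the pathway, had no test and did not share a direction.

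Intracellular adaptors and co-repressors had 6 risen and 0 fallen of 21 tested at a deposited q under 0.05. The risen share of 28.6% was near the 23.5% of tested genes in the components' range of mean FPKM, beside 18.7% of all tested genes. Some adaptors lay above that range, among them Fkbp1a and Strap at means of 658 and 49.6 FPKM. By the adjusted normal p-values 0 of the 21 passed, with 3 higher and 0 lower at an unadjusted normal p under 0.05. Tgif2 (1.35 to 4.26 FPKM) and Tgif1 (2.27 to 4.34 FPKM), homeodomain co-repressors of Smad2 and Smad3, rose, as did Skil (2.06 to 3.60 FPKM), a Smad co-repressor that TGF-beta signalling itself induces. The phosphatase gene Ctdsp2 (2.77 to 4.77 FPKM), the Smad anchor gene Zfyve16 (1.16 to 1.87 FPKM) and Map3k7 (1.82 to 2.51 FPKM), the kinase of the Smad-independent branch, also rose. Extracellular modulators had 4 risen and 1 fallen of 14 tested, of which Fstl1 alone passed by the normal p-values. Their shares of 28.6% risen and 7.14% fallen were near the 23.5% and 9.95% in the components' range, beside 18.7% and 19.1% of all tested genes. Fstl1 (3.06 to 7.57 FPKM) and Htra1 (0.143 to 0.711 FPKM), whose products bind or cut family ligands, rose, with Bmper (0.547 to 1.02 FPKM) and Sostdc1 (2.66 to 4.12 FPKM), both BMP-binding proteins. Dcn, a matrix proteoglycan gene that is also a fibroblast marker, fell from 3.11 to 1.79 FPKM. Among 4 tested receptors and co-receptors, the BMP co-receptor gene Rgma (1.12 to 2.86 FPKM) and Itgb8 (0.284 to 0.961 FPKM), an integrin that frees latent TGF-beta, rose, and Neo1 (9.12 to 6.30 FPKM), the RGM receptor, fell. Of 3 further ligand genes tested, Inha, the inhibin alpha chain, fell from 2.72 to 1.56 FPKM and the others, Gdf5 and Gdf9, were not called. The shares were 50% risen and 25% fallen for the receptors and co-receptors, and 0% and 33.3% for these ligand genes. Both rest on few genes and stand beside the same 18.7% and 19.1% of all tested genes. Bmp10, Gdf6, Gdf7, Nodal, Cfc1 and Chrdl2 were listed at 0 in both groups.

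**Figure D5:**
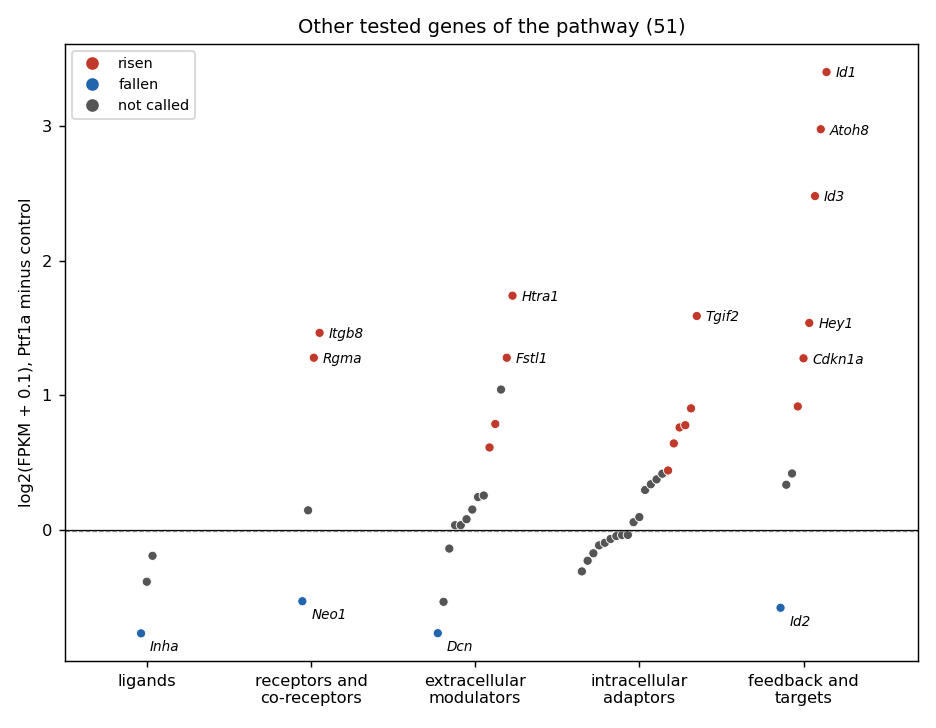
Difference in log2(FPKM + 0.1), Ptf1a minus control, for the 51 other tested genes of the pathway in 5 roles, coloured by call, each point 1 gene ordered by value within its role. Id1, Atoh8 and Id3 stand highest among the feedback and target genes, with differences of 3.40, 2.98 and 2.48, and the dashed line marks the median of all tested genes at -0.01.

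Markers of the labelled cells and of other cell types moved with the groups. All 10 pyramidal neuron markers were tested and 7 fell with 0 risen, their FPKM summing to 1894 in the control and 1322 with Ptf1a. All 8 radial glia and basal progenitor markers rose, from a sum of 1800 to 3448 FPKM. Most of the pyramidal sum was Neurod6 (1717 and 1190 FPKM), and most of the progenitor sum was Fabp7 (1652 and 3095 FPKM). Of 7 interneuron markers of the ganglionic eminence 5 were tested and 4 rose (summed 7.28 and 15.9 FPKM). These counts stand beside 18.7% risen and 19.1% fallen of all tested genes. By the normal p-values 7 of the 8 progenitor markers passed, but of the fallen pyramidal markers Tbr1 alone and of the risen interneuron markers Gad2 alone. These 8 progenitor and 4 interneuron markers rose in the same comparison as the ligand, receptor and Smad genes above. In bulk samples fewer cells of a type and less RNA per cell cannot be told apart.

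Cell types known to make BMP and TGF-beta ligands were read the same way. Of 8 markers of the cortical hem and choroid plexus 1 was tested, Ttr, which fell from 31.4 to 6.92 FPKM, and the list summed to 32.2 and 7.95 FPKM. Of 8 meningeal markers 2 were tested, Dcn fell, Twist1 was listed at 0 in both groups, and the sum was 4.11 and 2.68 FPKM. Endothelial markers summed to 4.40 and 7.17 FPKM, with Esam risen (0.689 to 1.95 FPKM) of 3 tested among 8. Pericyte markers summed to 1.99 and 3.65 FPKM, with Pdgfrb (0.0286 to 1.20 FPKM) and Rgs5 (0.623 to 1.55 FPKM) risen, Kcnj8 fallen and Anpep listed at 0 in both groups, of 3 tested among 6. Microglial markers summed to 17.7 and 12.52 FPKM, with Tyrobp fallen of 6 tested among 8, and the 4 red blood cell markers found in the table summed to 141 and 60.2 FPKM, with 2 fallen. The sums rested on a few genes: without Ttr the other 7 hem and choroid plexus markers summed to 0.715 FPKM in the control and 1.03 FPKM with Ptf1a, and without Dcn and Lum the other 6 meningeal markers to 0.263 and 0.504 FPKM. Without Pdgfrb and Rgs5 the other 4 pericyte markers summed to 1.34 and 0.888 FPKM, so these lists had no single direction. Without Esam and Cldn5 the other 6 endothelial markers summed to 0.842 and 1.13 FPKM, with 4 higher and 2 lower. The largest part of this remainder was Emcn (0.444 and 0.738 FPKM), which was not called (q = 0.725 in the authors' deposited table). The rest of these endothelial markers had no test, so the remainder shows no direction of the list. All 4 red blood cell markers were lower with Ptf1a. By the normal p-values Ttr, Pdgfrb and the globin gene Hbb-y passed among these lists, and no other marker of them did. The part of these markers in the results on the signalling genes was not tested.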

How the data were processed

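RNA from sorted GFP-positive cortical cells of 3 Ptf1a and 2 GFP-only samples was amplified from low input and sequenced as 50 bp paired-end reads, per the labels' protocols. The submitters' processing notes name the build mm9, Cuffdiff without a version, Cufflinks 2.1.1, TopHat2 2.0.8 and CASAVA 1.8.2; the annotation, the filters and the strand setting are not given in the sources used here. The authors deposited 1 table of 23234 rows comparing both groups, with 1 FPKM value per group, a log2 fold, a test statistic (a score with no fixed range), and p-values and q-values, per the file headers. The group the headers name PIG was read as the Ptf1a and GFP construct. The depth per sample is unknown, and the number of samples limits the precision. The p-values compare the groups under the authors' model of the spread between samples and do not measure that spread.

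Components were found by symbol. Genes were called where the deposited q was under 0.05, and the mark of significance in the table differed from this in 0 rows. Differences used log2(FPKM + 0.1) on the deposited FPKM. Alternatives were a q under 0.01, at least 1 FPKM in the higher group or, added after seeing the data, as the mean of both groups, at least 1.5-fold, pseudocounts of 1 and 0.01, centring on all tested genes or on 10 parts by mean FPKM, and Benjamini-Hochberg adjusted normal p-values of the test statistic, which 45 tested rows lacked. Starts were read as counted from 0 and printed as counted from 1, since 4812 of 17251 loci then matched the span of a transcript of the annotation, against 609 otherwise. All components were named. Of other pathway genes, every called gene was named in roles with 6 or fewer called, and otherwise the 4 with the largest absolute difference, with Id1, Id3, Smad6, Smad7 and Bambi named in any case. The components and the lists of pathway genes and markers were chosen with earlier results of these data known. Promoter windows were 250 bases from RefSeq on GRCm38.p6. The scripts were tested on simulated data. Software was Python 3.11.15, NumPy 2.4.6, pandas 2.3.3, SciPy 1.17.1 and Matplotlib 3.10.9.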

Additional observations from a re-analysis of the deposited data

How the results depend on the processing

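No paired analysis was possible because the table gives 1 value per group, and for the same reason leaving out a sample was not run. With normal p-values of the deposited test statistic, 1 component was called as higher in place of 10 and 0 as lower in place of 1 (3 and 0 at an unadjusted normal p under 0.05), and of the other pathway genes 6 were called as higher in place of 18 and 0 as lower in place of 4 (1 lower at an unadjusted normal p under 0.05). The fall of Bmp1 was also lost at a q under 0.01 and at 1.5-fold, each leaving 0 fallen components, where 3 were lower at an unadjusted deposited p under 0.05. At 1.5-fold 2 other pathway genes had fallen. The cause was not tested. The risen components numbered 7 at a q under 0.01 and 8 at 1.5-fold. A minimum of 1 FPKM in the higher group, which left 7, favours risen genes and says nothing of stability, and with a minimum of 1 FPKM for the mean of both groups, added after seeing the data, 5 rose. All 11 called components kept their direction under both centrings, which their selection by direction made likely in advance. A pseudocount cannot change a direction, but 1 in place of 0.1 lowered 5 differences by over 1.5 times. These were Bmp7 from 1.53 to 0.51, Tgfb3 from 1.52 to 0.71, Inhbb from 0.71 to 0.32, Smad3 from 0.73 to 0.33 and Bmpr2 from 0.81 to 0.41. The median of the tested components ranged from 0.05, centred by abundance, to 0.42 over all components. Depth per sample was unknown, and components with at most 0.547 FPKM in their higher group had no test.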
